A study of Rattus norvegicus with 12 samples.

Results

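Astrocyte genes were followed in the striatum of rats that had self-administered methamphetamine (MA). The genes are a list of 46 symbols of proteins that astrocytes make, chosen by name with earlier results of these data known. Of these, 45 were rows of the gene-level count table, which holds 17337 genes. The remaining symbol, Hepacam, was not analysed here. RNA sequencing had been done on the striatum of 12 adult male Sprague-Dawley rats, 1 library per rat, in 3 groups of 4. All rats were wild type, and all had self-administered MA intravenously for 16 days. The MA12 group was examined after 12 h of abstinence and the MA24 group after 24 h, both after 16 days of self-administration. The labels name the third group non-addicted, with the same 16 days of intake, and give no abstinence time for it. Saline rats and rats taken during MA intake were not analysed here.

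Astrocytes clear glutamate and potassium released by neurons, pass water and small molecules between blood and tissue through their endfeet, and supply neurons with glutamine, lactate and lipids. They are joined to each other by gap junctions, and they raise intermediate filament proteins such as GFAP when tissue is injured. In the striatum they border the synapses of projection neurons, where dopamine and glutamate signals meet. In bulk tissue, fewer astrocytes and less RNA per astrocyte cannot be told apart.

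Total counts lay between 17908962 and 23850284 per rat. Levels below are CPM, counts scaled to the size of the library after TMM normalization, and since gene lengths were not used, a level is compared between rats and never between genes. The 45 genes together took 2.07% of all counts in MA12 rat 21, the lowest share, and 2.81% in MA24 rat 16N, the highest. Single counts ran from 38 to 168747. Of the 45 genes, 26 had at least 1000 counts in every rat, and 5 (Nes, Lcat, Pla2g7, Chrdl1 and Rorb) had fewer than 100 in some rat, where counting error is larger. The defining markers of astrocytes and of striatal projection neurons were detected in all rats. The 12 projection neuron markers summed to between 15999 and 20829 CPM, and the 6 markers of cortical excitatory neurons to between 11.5 and 23.0 CPM.

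The rats did not contribute evenly to the extremes. MA12 rat 21 held the lowest level of the 12 rats for 19 of the 45 genes (42.2%), against 11.2% of the 12649 genes with a mean count above 4. Among them were Glul, Gja1, Aldoc, Apoe, Clu, S100b and Ndrg2. Non-addicted rat 9 was lowest for 11 genes (24.4%, against 8.88% of all genes), and MA24 rat 14N for 7 (15.6%, against 14.6%). Rats 14N and 9 together were the lowest pair for 9 of the 45 genes, against 6.38% of all genes, and these were Slc1a2, Kcnj10, Slc4a4, Slc14a1, Ncan, Rorb, Fgfr3, Ednrb and Megf10. At the other end, MA24 rat 16N held the highest level for 13 genes (28.9%, against 13.9% of all genes) and MA12 rat 4N for 10 (22.2%, against 9.76%). The heatmap of all 45 genes shows these rats as columns of 1 colour over part of the list.

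**Figure D1:**
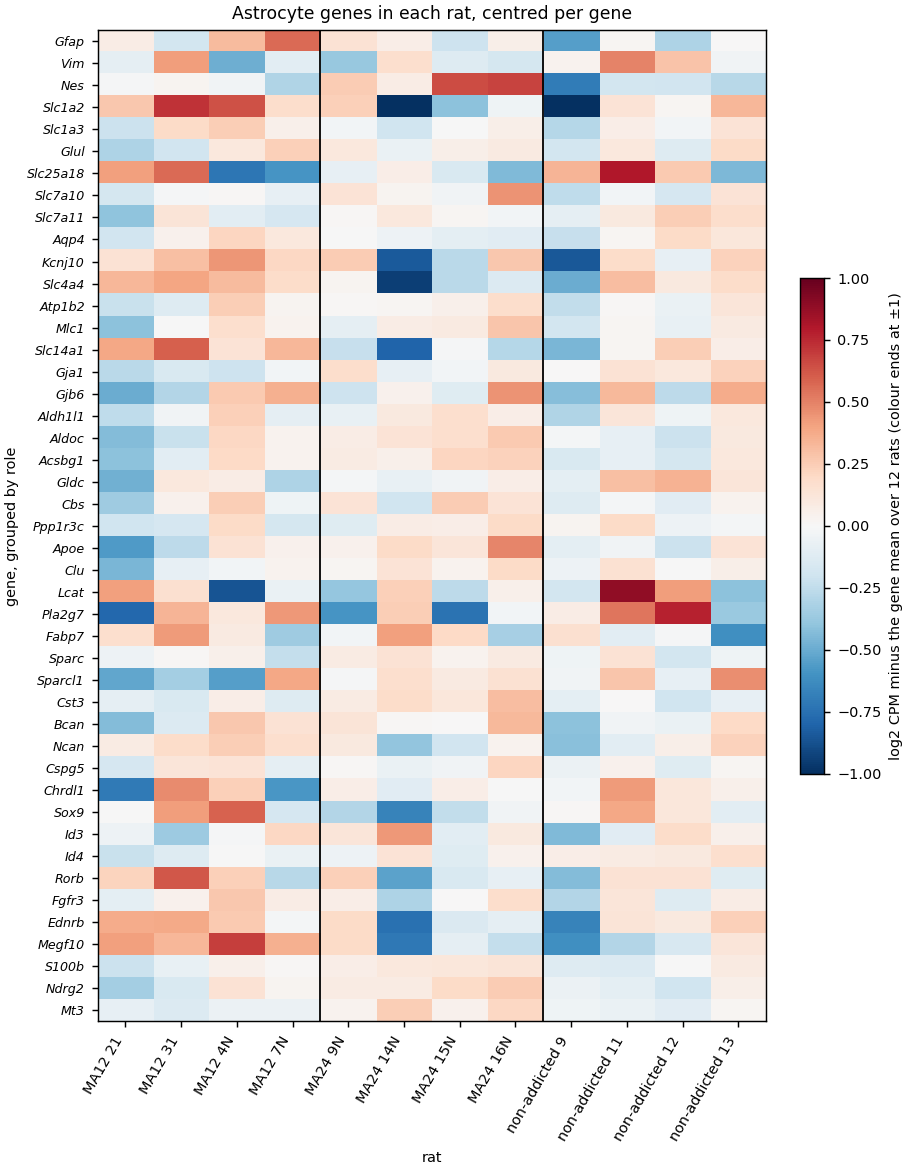
Level of each of the 45 astrocyte genes in each of the 12 rats, as log2 CPM minus the gene's mean over all rats (colour, ends set at 1 and -1), with genes grouped by role and rats ordered MA12, MA24, non-addicted. MA12 rat 21 is the lowest rat for 19 genes, and rats 14N and 9 are low together for the block around Slc1a2, Kcnj10 and Slc4a4.

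The comparison of MA24 with MA12 asks how levels differed after the longer abstinence. By the paper's methods the rats were kept under a light-dark cycle, and the hours at which tissue was taken are not given. If all sessions were held at the same hour, MA24 and MA12 rats were sampled at different times of day. Time of day and length of abstinence then cannot be told apart in this comparison, and an effect of time of day was not tested. Of 45 genes tested, 4 fell and none rose by the criterion of an adjusted p below 0.05 in edgeR's quasi-likelihood test with a fold change of at least 1.5. They were Slc1a2, the main glutamate transporter of astrocytes, Slc4a4, a sodium bicarbonate cotransporter, Slc14a1, a urea transporter, and Megf10, a receptor for engulfing synapses and debris. These 4 are 8.89% of the list, while 2.45% of all 10754 genes tested passed the same criterion and 1.72% did so in the lower direction. With Sox9, a transcription factor of astrocytes whose change was under 1.5-fold, 5 genes had an adjusted p below 0.05 (11.1%, against 5.16% of all genes tested), and all 5 were lower in MA24. An unadjusted p below 0.05 was found for 13 of the 45 genes, against 23.6% of all genes. The list as a whole did not move down with them, since 27 of the 45 genes had a log2 fold change (log2FC) above 0 and 18 below, while 48.3% of all genes tested were above 0. The median log2FC was 0.08 over the list and -0.02 over all genes tested, and with scaling by library size only these became 0.01 and -0.09 (25 genes above 0 and 20 below).

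The regions around the start of 3 of the 4 genes that fell are shown because these genes passed the test in the same comparison. They run from 250 bases before the start to 50 after it, 5′ to 3′ on the gene's strand, as RefSeq gives them for the build GRCr8. Capitals mark a motif found by a search of both strands.
Slc1a2 (chr3:109459859-109460158, plus strand): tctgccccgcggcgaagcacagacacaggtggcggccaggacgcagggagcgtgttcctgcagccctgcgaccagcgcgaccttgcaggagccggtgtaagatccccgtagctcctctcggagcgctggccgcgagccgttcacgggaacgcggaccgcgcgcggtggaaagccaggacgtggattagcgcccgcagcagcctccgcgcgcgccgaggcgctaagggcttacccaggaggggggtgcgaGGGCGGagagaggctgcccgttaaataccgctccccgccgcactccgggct
Slc4a4 (chr14:19468233-19468532, minus strand): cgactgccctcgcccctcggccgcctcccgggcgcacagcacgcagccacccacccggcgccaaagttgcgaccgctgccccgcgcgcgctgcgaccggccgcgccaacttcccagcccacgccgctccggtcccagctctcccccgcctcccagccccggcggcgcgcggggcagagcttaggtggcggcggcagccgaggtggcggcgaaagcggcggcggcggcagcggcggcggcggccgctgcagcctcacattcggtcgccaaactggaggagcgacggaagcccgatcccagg
Slc14a1 (chr18:73864594-73864893, minus strand): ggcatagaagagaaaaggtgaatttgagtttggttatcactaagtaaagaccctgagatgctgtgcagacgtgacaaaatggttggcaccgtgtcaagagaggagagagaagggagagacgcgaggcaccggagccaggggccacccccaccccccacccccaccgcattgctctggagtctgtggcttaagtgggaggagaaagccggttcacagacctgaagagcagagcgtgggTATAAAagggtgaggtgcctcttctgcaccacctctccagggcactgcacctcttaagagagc
The capitals are a GC box (GGGCGG) in the Slc1a2 region and a TATA box (TATAAA) in the Slc14a1 region. The Slc4a4 window held neither these letters nor those of the other 5 motifs searched. Regions were matched for 41 of the 45 genes, and 24 of these (58.5%) held a GC box, against 33.1% of all 33469 promoters in the table. The TATA box letters were in 6 of the 41 (14.6%, against 14.2%), which were Atp1b2, Mt3, Ncan, Ndrg2, Slc14a1 and Vim. The E-box CACGTG was in 1 (2.44%, against 6.42%), the STAT palindrome TTCNNNGAA in 2 (4.88%, against 8.87%), and the SOX letters ACAATG in 2 (4.88%, against 13.2%). The cyclic AMP response element TGACGTCA and the NFI palindrome were in 0 of 41, against 1.83% and 0.0418% of all promoters. None of the motifs holds the letters of another, and a match of letters is a description of the window, not evidence of binding.

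Among the genes of glutamate and amino acid transport, Slc1a2 stood at 236, 323, 304.5 and 221 CPM in MA12 rats 21, 31, 4N and 7N, and at 231, 98.2, 147 and 190.5 CPM in MA24 rats 9N, 14N, 15N and 16N. The means were 271 ± 50.1 and 167 ± 57.0 CPM (SD, n = 4 rats each). Rat 9N lay above MA12 rat 7N, so the groups overlapped, and rat 14N was the lowest of the 8. The log2FC was -0.70 (SE 0.18, adjusted p = 0.0328 in edgeR's quasi-likelihood test), and the two-sided exact permutation p was 0.0571. Slc1a3, the other glutamate transporter of astrocytes, stood at 670, 891, 923 and 806 CPM in MA12 and at 765, 678.5, 778 and 811 CPM in MA24. Its groups overlapped, and the log2FC was -0.12 ± 0.11 (SE, edgeR adjusted p = 0.534). The difference between these transporters in their response was not tested. Glul, which makes glutamine from the glutamate taken up, had a log2FC of 0.07, and the amino acid exchangers Slc7a10 and Slc7a11 and the mitochondrial glutamate carrier Slc25a18 had values from -0.17 to 0.22. Of these 6 genes, 1 fell and none rose.

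Of the 6 genes for water, ion and urea handling, 2 fell. Slc4a4 stood at 84.9, 88.7, 84.25 and 77.0 CPM in MA12 (rats in the order above) and at 68.9, 35.2, 56.1 and 61.5 CPM in MA24, with means of 83.7 ± 4.88 and 55.4 ± 14.5 CPM (SD, n = 4 each). Each MA24 rat was below each MA12 rat. The log2FC was -0.59 (SE 0.15, edgeR adjusted p = 0.0251), with an exact permutation p of 0.0286, the smallest that 4 rats against 4 can give. Slc14a1 stood at 19.3, 22.3, 16.2 and 18.6 CPM in MA12 and at 12.6, 8.48, 14.7 and 12.1 CPM in MA24. These groups were also apart, and the log2FC was -0.67 (SE 0.16, edgeR adjusted p = 0.0212).

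Kcnj10, the Kir4.1 channel through which astrocytes take up potassium, did not pass the test and is given because it was low in the same rats, a choice made after its values were seen. It stood at 71.2, 79.3, 87.45 and 74.3 CPM in MA12 and at 76.7, 35.85, 53.3 and 77.65 CPM in MA24. Rats 9N and 16N lay within the MA12 range while rats 14N and 15N lay below it, and the log2FC was -0.36 (SE 0.17, edgeR adjusted p = 0.211). Aqp4, the water channel of the endfeet, stood at 366, 429, 485 and 449 CPM in MA12 and at 415, 402, 390.5 and 385 CPM in MA24. The MA24 rats all lay within the MA12 range, with a log2FC of -0.12 (edgeR adjusted p = 0.493). Mlc1, a membrane protein of the endfeet, and Atp1b2, a subunit of the sodium pump, had log2FC values of 0.13 and 0.08.

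All 3 receptors had a log2FC below 0 under each of 3 scalings, and 1 of them fell. Megf10 stood at 29.6, 28.0, 35.8 and 28.3 CPM in MA12 and at 25.4, 13.6, 20.9 and 18.8 CPM in MA24. The groups were apart, with means of 30.4 ± 3.65 and 19.7 ± 4.92 CPM (SD, n = 4 each), a log2FC of -0.63 (SE 0.15) and an adjusted p of 0.0251 by edgeR. Ednrb, the endothelin receptor B, had a log2FC of -0.41 (edgeR adjusted p = 0.105), and Fgfr3, a fibroblast growth factor receptor, of -0.08. Among the 4 transcription factors, Sox9 stood at 37.5, 50.5, 56.7 and 33.6 CPM in MA12 and at 30.8, 23.7, 31.75 and 36.8 CPM in MA24. MA24 rat 16N lay above MA12 rat 7N, so these groups overlapped, and the log2FC was -0.54 (SE 0.15, edgeR adjusted p = 0.0487). Rorb, Id3 and Id4 had values from -0.35 to 0.19, and none passed the test.

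The calls of these 4 genes depended on single rats, while each log2FC stayed below 0 in all 18 alternatives. Without MA24 rat 14N, none of the 4 kept both an adjusted p below 0.05 and a 1.5-fold change, and 11 of 44 genes tested then had an unadjusted p below 0.05, against 19.1% of all genes. Over all genes tested, 264 of 10754 passed with all rats, and 129 of 10753 without rat 14N. The log2FC was then -0.52 for Slc1a2 (adjusted p = 0.0584), -0.43 for Slc4a4 (0.0347), -0.54 for Slc14a1 (0.054) and -0.49 for Megf10 (0.0561), by edgeR. Leaving out MA12 rat 31 left Megf10 only. Without MA12 rat 4N, Slc4a4 and Slc14a1 still passed, and without MA24 rat 15N, Slc14a1 and Megf10 did. Over all genes, 206, 249 and 209 passed without rats 31, 4N and 15N. Without MA12 rat 21, Slc1a2, Megf10 and Sox9 passed (151 of all genes). Without MA24 rat 16N Sox9 passed in place of Megf10 (194 of all genes). Without both rat 21 and the variance filter, none of the 45 genes and none of all 12638 genes tested passed in edgeR's quasi-likelihood test, while 12 of the 45 (17.5% of all genes) had an unadjusted p below 0.05. DESeq2 called Slc14a1 and Megf10 among 320 of all genes, and Slc1a2 did not pass without the variance filter (adjusted p = 0.0676 by edgeR). An N follows the number of all 4 MA24 rats, of 2 MA12 rats and of no non-addicted rat, and the labels do not say what the letter means. Among rats numbered with N alone, Megf10 fell (log2FC -0.69, edgeR adjusted p = 0.0471) and the other 3 did not pass, with log2FC values of -0.65 for Slc1a2, -0.53 for Slc4a4 and -0.53 for Slc14a1. Of all 10699 genes tested there, 116 passed. With the kind of number as a covariate none of the 4 passed, with log2FC values from -0.71 to -0.54 and edgeR adjusted p from 0.0873 to 0.177. Of all 10754 genes tested, 47 passed with this covariate.

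**Figure D2:**
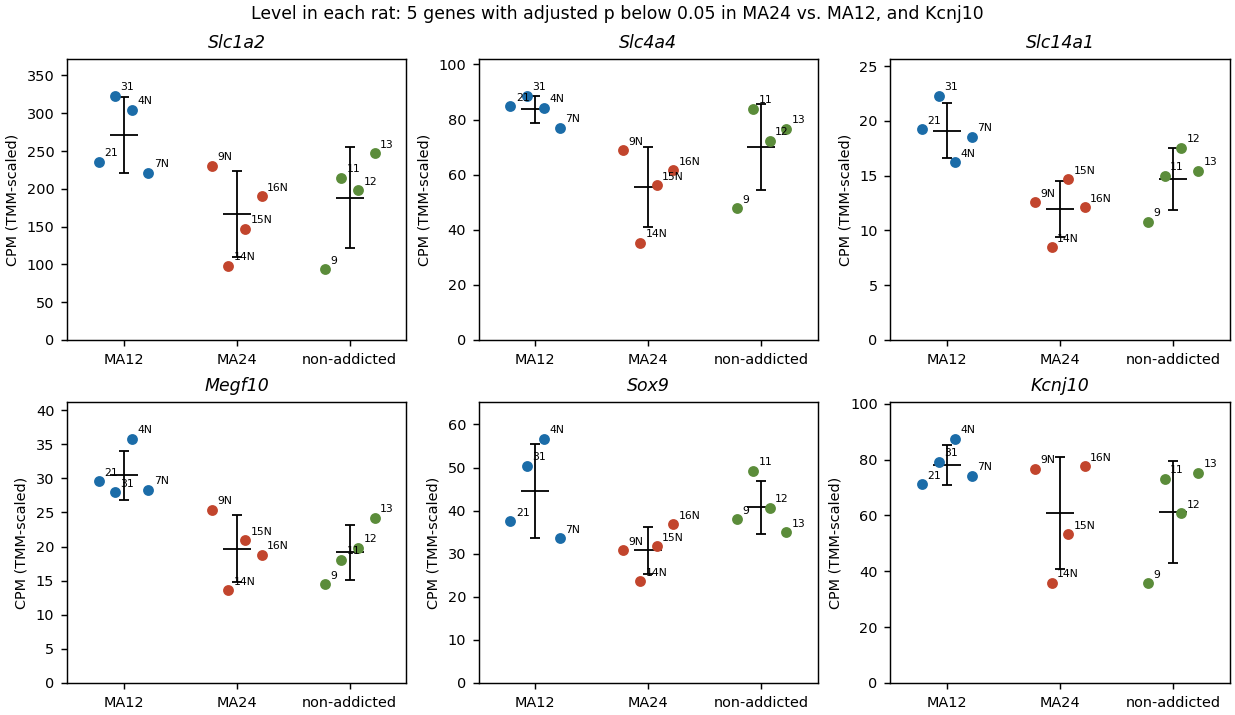
Level in CPM (y axis, starting at 0) of Slc1a2, Slc4a4, Slc14a1, Megf10, Sox9 and Kcnj10 in each rat, with points labelled by rat number and bars for mean ± SD in each group of 4. MA24 rat 14N is the lowest MA24 rat in all 6 plots, and the MA24 and MA12 points do not overlap for Slc4a4, Slc14a1 and Megf10.

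Several genes with the opposite sign did not pass the test. In MA24 vs. MA12 the 4 rats of each group were apart for 7 of the 45 genes (15.6%, against 15.6% of all genes tested), 3 of them lower in MA24 (8.4% of all genes) and 4 higher (7.16%). The 4 higher genes were Nes, Cst3, Mt3 and S100b. Nes, an intermediate filament protein of neural progenitors and some vascular cells, stood at 5.43, 5.60, 5.36 and 4.46 CPM in MA12 and at 6.54, 5.77, 8.63 and 8.76 CPM in MA24, and the log2FC was 0.51 ± 0.20 (SE, edgeR adjusted p = 0.135). S100b, a calcium-binding protein used as an astrocyte marker, stood at 1318, 1456, 1585 and 1549 CPM in MA12 and at 1607, 1653, 1660 and 1674 CPM in MA24. Its difference was small (log2FC 0.16, SE 0.10, edgeR adjusted p = 0.316). Cst3, the secreted protease inhibitor cystatin C, and Mt3, a brain metallothionein, had log2FC values of 0.25 (adjusted p = 0.126) and 0.22 (0.159).

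Gfap, Aldh1l1 and Gja1 did not pass either. Gfap stood at 356.5, 298.5, 422 and 504 CPM in MA12 and at 376, 356, 294 and 353 CPM in MA24, and the log2FC was -0.20 ± 0.13 (SE, edgeR adjusted p = 0.377). Aldh1l1, a folate enzyme, stood at 21.0, 24.4, 29.45 and 23.5 CPM in MA12 and at 23.7, 26.8, 28.1 and 26.2 CPM in MA24, with a log2FC of 0.09. Its sign turned in 2 of 18 alternative settings, down to -0.02. Gja1, the gap junction protein connexin 43, stood at 397, 430, 414 and 468 CPM in MA12 and at 540, 452, 469 and 512 CPM in MA24, and its groups overlapped (log2FC 0.21, SE 0.10, edgeR adjusted p = 0.204).

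By role, all 6 metabolic genes, which include the glycolytic enzyme Aldoc and the glycine decarboxylase Gldc, had a log2FC above 0, from 0.09 to 0.24, under this scaling and under both others, and none passed. The 3 other cytosolic proteins S100b, Ndrg2 and Mt3 were above 0 as well under each scaling, from 0.16 to 0.22 in the reported one. Of 7 secreted and matrix proteins 6 were above 0 (4 with library size only), from 0.03 for Cspg5 to 0.30 for Sparcl1 with Bcan, Chrdl1, Sparc and Cst3 between them. The exception was Ncan, a chondroitin sulfate proteoglycan, at -0.27 (adjusted p = 0.137). Apoe, the main lipid carrier of the brain, had a log2FC of 0.36 ± 0.14 (SE, edgeR adjusted p = 0.126), and its 4284 CPM in MA12 rat 21 was the lowest of the 12 rats. The other lipid genes were Clu at 0.22, Fabp7 at -0.02, Lcat at -0.05 and Pla2g7 at -0.31, the filament protein Vim was at -0.08, and Gjb6, the gap junction protein connexin 30, was at 0.06. In these groups, MA12 rat 21 was the lowest rat for Aldoc, Acsbg1, Gldc, Cbs, Ppp1r3c, S100b, Ndrg2, Apoe and Clu. Bcan, Cspg5, Chrdl1, Pla2g7 and Gjb6 were also lowest there. Without rat 21, in a fit without the variance filter chosen after seeing the data, the log2FC was 0.11 for S100b, 0.14 for Aldoc, 0.14 for Ndrg2 and 0.24 for Apoe. The 6 metabolic genes then lay between 0.00 and 0.14, and 4 of the 7 secreted and matrix proteins were above 0.

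**Figure D3:**
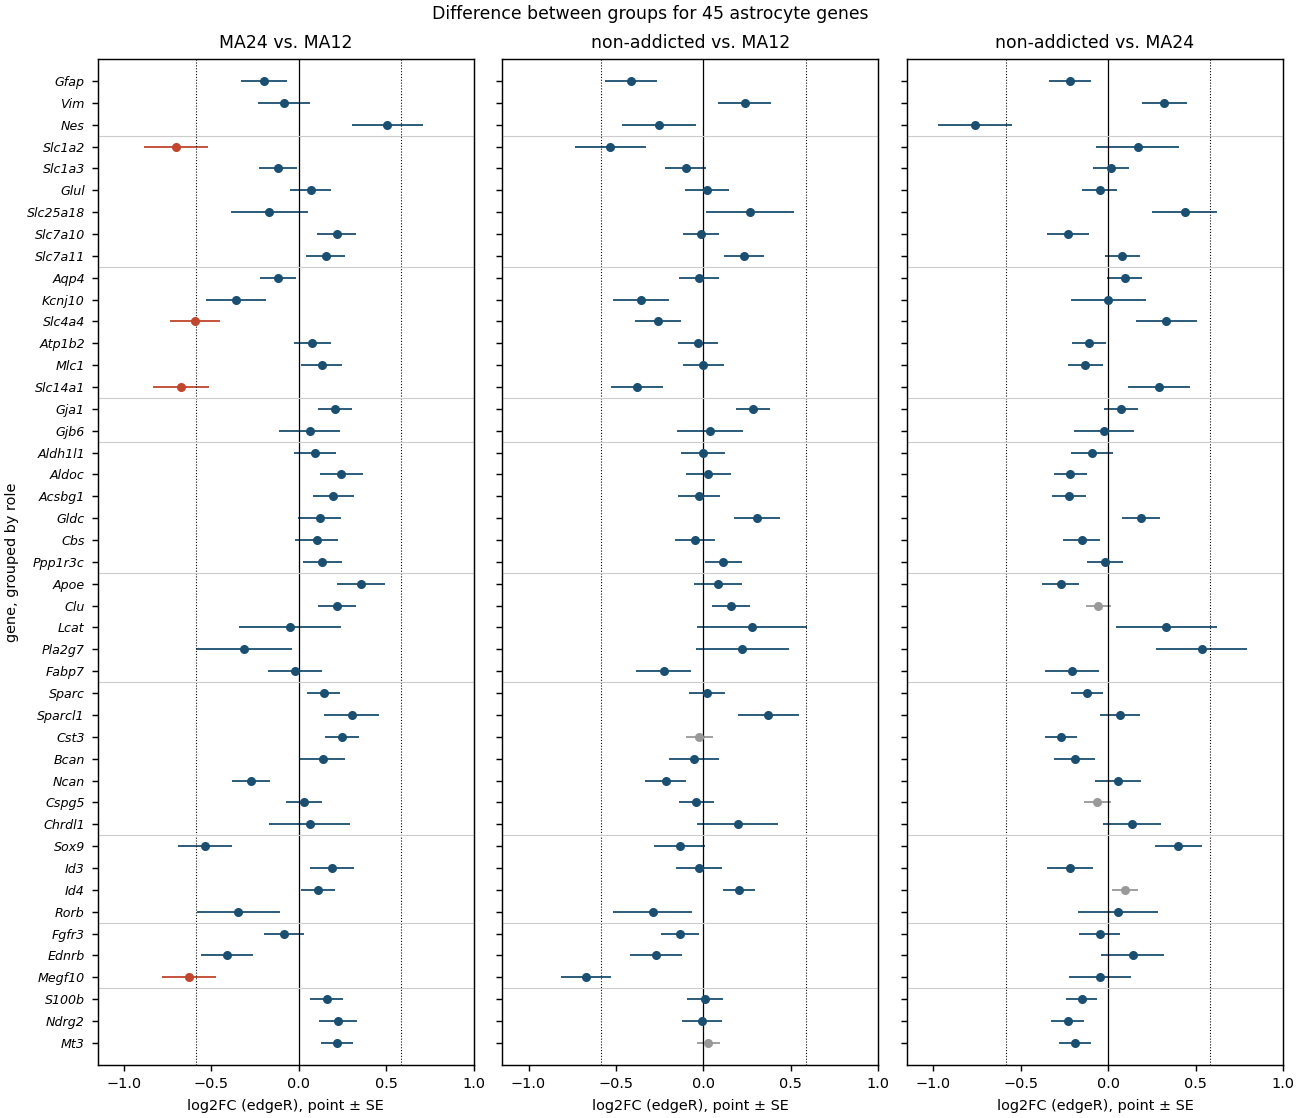
Log2FC (x axis, with SE as bars) of each of the 45 astrocyte genes in the 3 comparisons, with genes in rows by role and dotted lines at a 1.5-fold change. Red marks the 4 genes that passed in MA24 vs. MA12, dark blue the other genes tested and grey those read from the fit without the variance filter. No gene passed in the comparisons with non-addicted rats.

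The non-addicted rats were compared with each abstinent group, so the 3 comparisons share rats and are not independent. Against MA12, none of 43 genes tested passed in edgeR's quasi-likelihood test (0.251% of all 10758 genes tested did), and 9 had an unadjusted p below 0.05, against 12.3% of all genes. DESeq2 and edgeR's likelihood ratio test each called 1 of the 43, Megf10. Of all 10758 genes tested they called 75 and 87, against 27 by the quasi-likelihood test. Megf10 stood at 14.5, 18.1, 19.85 and 24.2 CPM in non-addicted rats 9, 11, 12 and 13, all below the MA12 rats. Its mean was 19.2 ± 4.04 CPM (SD, n = 4) beside 19.7 CPM in MA24, and the log2FC against MA12 was -0.67 ± 0.14 (SE, edgeR adjusted p = 0.0513, exact permutation p = 0.0286). The adjusted p was 0.00491 with DESeq2 and 0.00329 with the likelihood ratio test. Leaving out non-addicted rat 13 gave 0.00936, and leaving out MA12 rat 7N gave 0.0289.

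The groups were apart for 3 of the 43 genes (6.98%, against 7.1% of all genes), namely Megf10, Gja1 and Id4. Gja1 stood at 479, 530, 515 and 561 CPM in the non-addicted rats, above all MA12 rats, and the log2FC was 0.28 ± 0.10 (SE, edgeR adjusted p = 0.229). Id4, an inhibitor of DNA binding, had a log2FC of 0.20 (adjusted p = 0.381). Slc1a2 stood at 93.4, 215, 198 and 247 CPM in non-addicted rats 9, 11, 12 and 13, and rat 9 alone lay below all MA24 rats. Its log2FC against MA12 was -0.53 (SE 0.20, edgeR adjusted p = 0.282). Gfap stood at 232, 343, 275 and 340 CPM, and the log2FC was -0.42 ± 0.15 (SE, edgeR adjusted p = 0.251), which ran from -0.53 to -0.13 over the alternatives. Over the list, 19 genes had a log2FC above 0 and 24 below (47.7% of all genes tested were above 0), with a median of -0.01, as over all genes tested. Apart from Megf10, Slc1a2, Gfap and Sparcl1, the genes lay between -0.38 (Slc14a1) and 0.31 (Gldc), and all 3 receptors were below 0. Slc14a1 stood at 10.8, 15.0, 17.55 and 15.5 CPM in the non-addicted rats, and Slc4a4 at 47.9, 83.9, 72.4 and 76.7 CPM (log2FC -0.26). Rat 9 was the lowest of the 4 for both.

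Cst3 and Mt3 were removed by the variance filter in this comparison and were read from the fit without it, with log2FC values of -0.02 and 0.03. Sparcl1, a secreted matrix protein of synapse formation, stood at 743, 838, 727 and 1391 CPM in MA12 and at 1039, 1289, 1003 and 1469 CPM in the non-addicted rats. MA12 rat 7N lay far above the other MA12 rats, and the log2FC was 0.37 (edgeR adjusted p = 0.401). Sparcl1 passed without rat 7N (as did 93 of all 10782 genes tested), and also when only rats numbered without N were compared (63 of 10797).

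Against MA24, none of 42 genes tested passed in edgeR's quasi-likelihood test (0.456% of all 10744 genes tested did), and 9 had an unadjusted p below 0.05, against 17.5% of all genes. DESeq2 and the likelihood ratio test each called 1, Nes. How many of all genes these tools called in this comparison is not given here. Nes stood at 3.385, 4.83, 4.80 and 4.53 CPM in the non-addicted rats, all below the MA24 rats, and the log2FC was -0.76 ± 0.21 (SE, edgeR adjusted p = 0.097). Its adjusted p was 0.0299 with DESeq2 and 0.0421 with the likelihood ratio test. The groups were apart for 4 of the 42 genes (9.52%, against 10% of all genes), and Nes, Cst3, Mt3 and Ndrg2 were all lower in the non-addicted rats. Ndrg2, a cytosolic protein enriched in astrocytes, had a log2FC of -0.23 (adjusted p = 0.22), and Cst3 and Mt3 had values of -0.27 and -0.19. Because all MA24 rats and no non-addicted rat were numbered with N, the kind of number and the group cannot be told apart here.

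For the 4 genes that fell in MA24 vs. MA12, the MA24 and non-addicted rats overlapped. The log2FC of non-addicted against MA24 was 0.17 for Slc1a2 (SE 0.24), 0.33 for Slc4a4 (SE 0.18), 0.29 for Slc14a1 (SE 0.18) and -0.05 for Megf10 (SE 0.18). None passed the test, which does not show that the levels were the same. Sox9 had a log2FC of 0.40 ± 0.14 (SE, edgeR adjusted p = 0.153), and its non-addicted levels were 38.1, 49.3, 40.7 and 35.0 CPM. Kcnj10 had a log2FC of 0.00, with rat 9 at 35.7 CPM beside rat 14N at 35.85 CPM. Without rats 14N and 9 together, still none of the genes passed. Over the list, 19 genes had a log2FC above 0 and 23 below (50.3% of all genes tested were above 0), with medians of -0.03 over the list and 0.00 over all genes. With scaling by library size only these medians became 0.03 and 0.07, with 24 genes of the list above 0 and 18 below. Of all 10744 genes tested, 6374 were then above 0. Apart from Nes, the genes lay between -0.27 (Apoe) and 0.54 (Pla2g7, edgeR adjusted p = 0.293). The defining markers overlapped between these groups, with non-addicted levels of 640, 816, 764 and 858.5 CPM for Slc1a3, 355, 424, 476 and 450.5 CPM for Aqp4, 20.3, 27.1, 24.3 and 26.9 CPM for Aldh1l1 and 1399, 1395, 1528 and 1632 CPM for S100b. Clu, Cspg5 and Id4 were removed by the variance filter here, and had values from -0.06 to 0.10 in the fit without it.

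Further genes of astrocytes and of their reactive state were read from the same fits. Of 40 further astrocyte genes 38 were in the table, and none passed in any comparison in edgeR's quasi-likelihood test. DESeq2 and the likelihood ratio test called 1 gene, Cyp4f4, a cytochrome P450, higher in MA24 than in MA12 (320 and 380 of all 10754 genes tested were called), and none in the other comparisons. With 35 tested in MA24 vs. MA12, 37 in non-addicted vs. MA12 and 34 in non-addicted vs. MA24, an unadjusted p below 0.05 was found for 4, 5 and 8, against 23.6%, 12.3% and 17.5% of all genes, and the median log2FC was 0.06, -0.08 and -0.12. In non-addicted vs. MA24, 28 of the 34 had a log2FC below 0, against 5340 of all 10744 genes tested. With scaling by library size only, these counts became 21 of 34 and 4370 of 10744. Of 37 genes raised in reactive astrocytes 36 were in the table. None of 32 tested passed in MA24 vs. MA12 (DESeq2 called Hmox1 higher and the likelihood ratio test Lcn2 lower), none of 34 in non-addicted vs. MA12 by any of the 3 tools, and 1 of 34 passed in non-addicted vs. MA24, where DESeq2 and the likelihood ratio test called a further gene, Synm, an intermediate filament protein, higher in non-addicted rats. The gene that passed was Srgn, a proteoglycan core protein also made by blood and vascular cells, which was lower in non-addicted rats (26.2 ± 2.42 CPM) than in MA24 rats (39.6 ± 4.84 CPM, SD, n = 4 each), and the log2FC was -0.60 ± 0.12 (SE, edgeR adjusted p = 0.0354). An unadjusted p below 0.05 was found for 6, 4 and 6 of the reactive genes, and their median log2FC was 0.04, 0.06 and 0.06, in the same order of comparisons.

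Some astrocyte genes are also made by other cells of this tissue. Vim, an intermediate filament protein also of ependymal and vascular cells, and Slc25a18 had their highest levels in non-addicted rat 11, at 121 and 38.8 CPM. All 8 ependymal markers present in the table were detected, and their sum lay between 83.1 and 166 CPM in non-addicted rats, between 63.3 and 134.5 CPM in MA12 and between 69.2 and 94.9 CPM in MA24. Non-addicted rat 11, MA12 rat 31 and MA24 rat 14N had the highest ependymal sums of their groups, and they also had the highest Vim and Slc25a18 levels of their groups. Vim and Slc25a18 were chosen after their values were seen. Sox9 did not follow this order, since its lowest MA24 level (23.7 CPM) was in rat 14N. Against MA24, the log2FC of non-addicted rats was 0.32 for Vim (SE 0.13, edgeR adjusted p = 0.213) and 0.44 for Slc25a18 (SE 0.19, adjusted p = 0.239). In the same comparison 7 of the 8 ependymal markers had a log2FC above 0 (median 0.87), and Foxj1 (1.08, adjusted p = 0.0354) and Rsph1 (1.20, adjusted p = 0.0354, both by edgeR) passed. Of all genes tested there, 50.3% were above 0 and 0.456% passed. The part of ependymal cells in the levels of Vim and Slc25a18 was not tested.

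**Figure D4:**
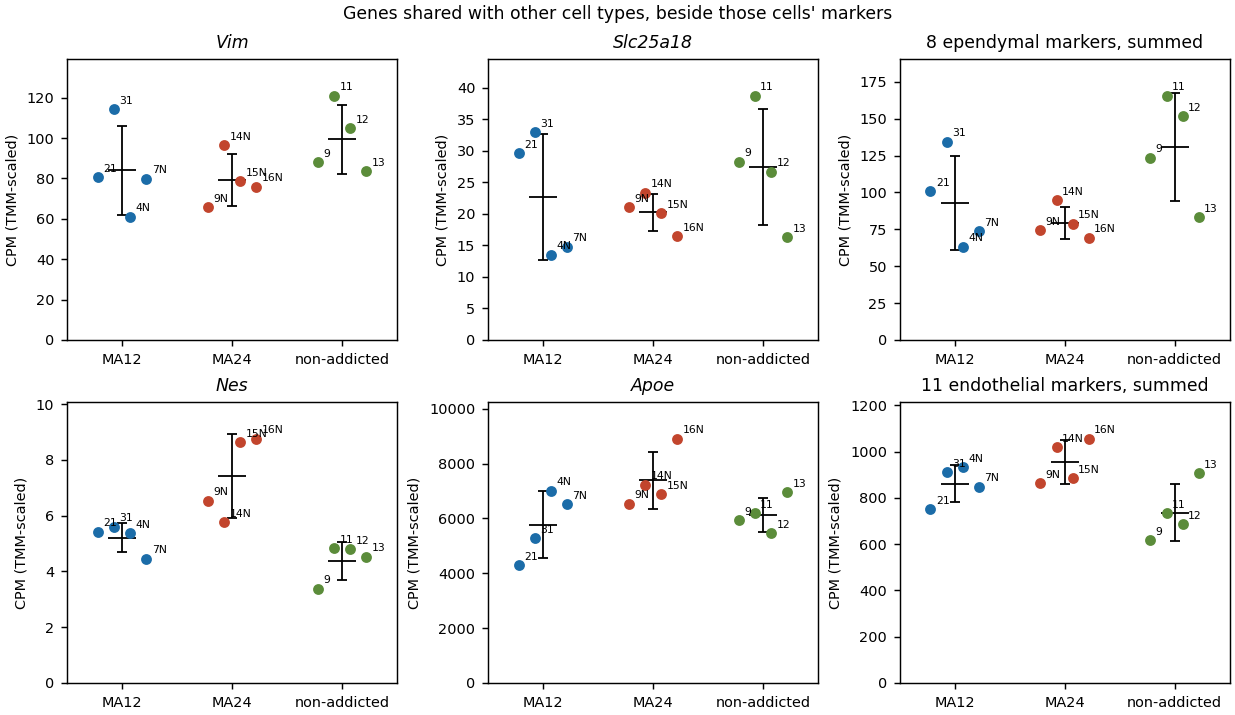
Level in CPM (y axis, starting at 0) of astrocyte genes and marker sums in each rat, with points labelled by rat number and bars for mean ± SD in each group of 4. Vim and Slc25a18 are highest in non-addicted rat 11, where the ependymal sum reaches 166 CPM, and the Nes points of MA24 lie above those of both other groups.

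For Nes, the 11 endothelial markers summed to between 617 and 908 CPM in non-addicted rats, 752 and 932 CPM in MA12 and 864 and 1055 CPM in MA24, and none was at 0. All 11 had a log2FC below 0 in non-addicted vs. MA24 (median -0.34), the groups were apart for 5 of them, and Cldn5 (-0.68, adjusted p = 0.0241) and Kdr (-0.85, adjusted p = 0.0354, both by edgeR) fell. Of all 10744 genes tested in that comparison, 5340 were below 0, 10% were apart and 0.456% passed. All 10 oligodendrocyte (median -0.36), all 11 microglial (-0.275) and all 11 tested mural and fibroblast markers (-0.38) were below 0 there too. Among MA24 rats, 16N was highest for Nes and the endothelial sum. Rat 14N had the lowest Nes (5.77 CPM) with a sum of 1020 CPM, and rat 15N had Nes at 8.63 CPM with 885 CPM. The 9 markers of progenitors and neuroblasts summed to between 164 and 225 CPM in non-addicted rats, between 149 and 252 CPM in MA12 and between 159 and 180 CPM in MA24. The median of this sum was 181 CPM in non-addicted rats, 159 CPM in MA12 and 166 CPM in MA24, so it was higher in MA24 than in MA12, as Nes was. Most single markers had a log2FC of the sign opposite to that of Nes. In non-addicted vs. MA24, 7 of the 9 had a log2FC above 0 (median 0.81), and in MA24 vs. MA12, 8 were below 0 (median -0.50). None of them passed in either comparison. Beside the genes that fell in MA24 vs. MA12, the sum of 12 mural and fibroblast markers, of which Col1a2 was at 0, lay between 199 and 335 CPM in MA12 and between 203.5 and 245 CPM in MA24. Of these, Rgs5 (log2FC -0.72, adjusted p = 0.016) and Abcc9 (log2FC -0.73, adjusted p = 0.0225, both by edgeR) fell. Pdyn, a marker of projection neurons, had a log2FC of -0.58 (edgeR adjusted p = 0.00838), under 1.5-fold. Of the 11 projection neuron markers tested, 5 had a log2FC above 0 and 6 below. The median sum of all 12 was 18304 CPM in MA12 and 19619 CPM in MA24. The 9 general neuronal markers summed to between 3336 and 3503 CPM in MA12 and between 2955.5 and 3183 CPM in MA24, and Map2 among them fell (log2FC -0.64, edgeR adjusted p = 0.00904). Of the 8 tested, 4 had a log2FC above 0 and 4 below, and Map2 was the only 1 that passed. Rat 14N was the lowest of the 12 rats for Map2, at 177 CPM. Beside Megf10 in non-addicted vs. MA12, the mural and fibroblast sum lay between 142 and 192 CPM in the non-addicted rats, and all 11 markers tested had a log2FC below 0 (median -0.56). Of these, Abcc9 (-1.10, adjusted p = 0.0157) and Acta2 (-0.81, adjusted p = 0.0436, both by edgeR) fell by the criterion, and Pdgfrb had a log2FC of -0.56 (adjusted p = 0.0446), under 1.5-fold. Kdr (-1.08, adjusted p = 0.0128) and Pdyn (-0.66, adjusted p = 0.0281, both by edgeR) also fell there. Among the markers tested there, 10 of 11 endothelial and 9 of 12 projection neuron markers had a log2FC below 0, against 5625 of all 10758 genes. The part of these cells in the astrocyte gene levels was not tested.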

How the data were processed

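Total RNA was extracted from the striatum of 12 rats, and by the paper's methods mRNA was isolated from it by poly-A capture before sequencing. Per the submitters' notes and methods, Cutadapt 1.18 trimmed the reads and STAR 2.7.0e placed them on rn6, and the authors deposited raw counts per gene; featureCounts and HTSeq 0.12.4 are both named for counting. The strand setting and the treatment of reads with several positions are not given in the sources used here.

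All 12 columns were used. In each comparison, a gene needed a mean count above 4 and a variance of log2 CPM outside the lowest 15% to be tested, a reading of the filters in the methods. Genes were tested with edgeR 4.0.16 (TMM, glmQLFit and glmQLFTest, R 4.3.3), with Benjamini-Hochberg adjustment over all genes tested; called genes had an adjusted p below 0.05 and a fold change of at least 1.5. The SE of a log2FC was derived from that test, as its absolute value divided by the square root of the F statistic. The fit was tested on simulated data. Members removed by the variance filter were read from a fit without it. A two-sided exact permutation test was run for single genes on log2 CPM (prior count 2) over 70 splits. Tables were made with Python 3.11.15. Alternatives were DESeq2 1.42.0, edgeR's likelihood ratio test, other scalings and filters, all 3 groups in 1 fit, and rats left out.

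The genes and lists were chosen with earlier results of these data known. Levels per rat are given for called genes, those with an adjusted p below 0.05, those whose groups were apart with an absolute log2FC of at least 0.3, and 8 defining markers; Kcnj10, Ednrb, Ncan, Apoe, Vim, Slc25a18, Sparcl1 and other genes outside this rule were chosen after their values were seen. Symbols are those of the table; no coordinates on rn6 are given.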

Additional observations from a re-analysis of the deposited data

Results flagged for a closer look

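Of 135 sets of 4 rats examined (45 genes in 3 groups), 2 held a rat whose gap to the nearest of the others, divided by the range of the 4, was above Dixon's critical value for 4 samples. Chance alone gives about 1 in 20, or 6.75 sets. Ppp1r3c, which directs glycogen synthesis, stood at 62.3 CPM in MA12 rat 4N and between 47.5 and 48.55 CPM in the other MA12 rats, with a ratio of 0.917. Ednrb stood at 25.6 CPM in non-addicted rat 9 and between 43.7 and 48.1 CPM in the other non-addicted rats, with a ratio of 0.847.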

How the results depend on the processing

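The log2FC of the 4 genes called in MA24 vs. MA12 stayed below 0 under every alternative run. The count of genes called in MA24 vs. MA12, 4 as reported, was 2 with DESeq2, 1 among rats numbered with N only and 0 with the kind of rat number as covariate, where 10 genes had an unadjusted p below 0.05 (15.2% of all genes), and 0 without rat 21 and the variance filter together, an alternative chosen after seeing the data. Leaving out 1 rat at a time gave 0 to 5. Over all genes tested, the count was 264 as reported, 320 with DESeq2, 116 among rats numbered with N only and 47 with the covariate. With 1 rat left out it ran from 129 to 436. Against MA12, the count for non-addicted rats, 0 as reported (27 over all genes), was 1 with DESeq2 (75 over all genes), 1 with the likelihood ratio test (87), 1 among rats numbered without N only (Sparcl1, with 63 over all genes) and 0 to 2 with 1 rat left out (8 to 93). Against MA24 it was 1 with DESeq2, 1 with the likelihood ratio test, 0 to 1 with 1 rat left out (Slc25a18 without rat 13) and 0 without rats 14N and 9 together, an alternative chosen after seeing the data. The cause was not tested. Over the other 18 alternatives, the log2FC in MA24 vs. MA12 ran from -0.90 to -0.52 for Slc1a2 (10 not called), from -0.72 to -0.43 for Slc4a4 (8 not called), from -0.79 to -0.53 for Slc14a1 (5 not called) and from -0.78 to -0.49 for Megf10 (4 not called), while Sox9 was called in 4. The adjusted p ran from 0.00412 to 0.154 for Slc1a2, from 0.00414 to 0.145 for Slc4a4, from 0.00409 to 0.202 for Slc14a1 and from 0.00467 to 0.0873 for Megf10. No paired analysis was possible because no rat number is shared between groups. With 4 rats a group, each p-value of the fits sets a difference against variation between few rats, estimated in part from other genes. Genes under 100 counts carry a larger counting error.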
